A study of Ciona robusta with 9 samples.

Results

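Of 15284 gene models measured in the sea squirt Ciona robusta (whole embryos), 39 were higher with Brachyury (Bra) under Tbx6-r.b regulatory DNA and near or below control with Bra under Etr1 regulatory DNA. The members were chosen by measured values. For each replicate number, the log2 change was taken as log2 of (normalized count + 1) in a construct library over (normalized count + 1) in the control library of that number. A member had a mean Tbx6-r.b>Bra count of at least 20, a mean change with Tbx6-r.b>Bra of at least 0.5, a change above 0 in all 3 pairs, and a mean change with Etr1>Bra under 0.25. There were 9 libraries in 3 groups of 3. Controls carried Bra>GFP, a plasmid in which Bra regulatory DNA drives the reporter GFP. The other groups carried Etr1>Venus-Bra or Tbx6-r.b>Venus-Bra, in which the fluorescent protein Venus is fused to Bra. All plasmids were electroporated into fertilized, dechorionated eggs, and 400 embryos per sample, grown at 21 °C, were taken at Hotta stage 19.5. The regulatory DNA of Etr1 or Tbx6-r.b was never present on its own, so its effect and that of Bra cannot be told apart here.

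Brachyury is a T-box transcription factor that, in ascidian embryos, is normally made in the notochord, the stiff rod along the axis of the tadpole tail, where it switches on notochord genes. Tbx6-related genes are also T-box factors; in ascidians they act in the tail muscle lineage, and their regulatory DNA is used to place other proteins there. Etr1 encodes an RNA-binding protein of the nervous system, and its regulatory DNA is used to reach neural cells. Electroporated plasmids reach the cells of an ascidian embryo as a mosaic, so a group mixes cells with and without the construct. The study asked which transcripts follow when Bra is present outside the notochord.

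The deposited tables identify genes by KH2012 IDs and pair none of them with a name, and 0 of these IDs matched the gene table at hand. No role is therefore given for any member, no marker list could be read, and whether the constructs reached muscle or neural cells was not checked here. Libraries held 9043181 to 10399304 gene-assigned reads. Both comparisons share the same 3 control libraries. Control values below are on the scale of the Tbx6-r.b>Bra table, and the scale of the Etr1>Bra table differs from it by up to 1.11%. In whole embryos, fewer cells of a type and less RNA per cell cannot be told apart. The replicates are called biological by the submitters with no further detail, and p-values therefore measure only how these samples vary, which may be technical.

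The members changed little in size with Tbx6-r.b>Bra. Their mean log2 change ran from 0.50 to 1.20 with a median of 0.61, and 3 of 39 had a mean change of at least 1. For 17 members the mean change was under 0.6, close to the lower bound of the rule. Over the 11445 genes tested in this comparison the median was −0.02. The single pairs were less even than the means: 9 members had a change of at least 0.5 in every pair, while 15 had a change under 0.25 in some pair. Pairs 1, 2 and 3 gave medians over the members of 0.58, 0.87 and 0.41, and 23 members had their largest change in pair 2. All these values were used to choose the members and are given as a description.

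**Figure D1:**
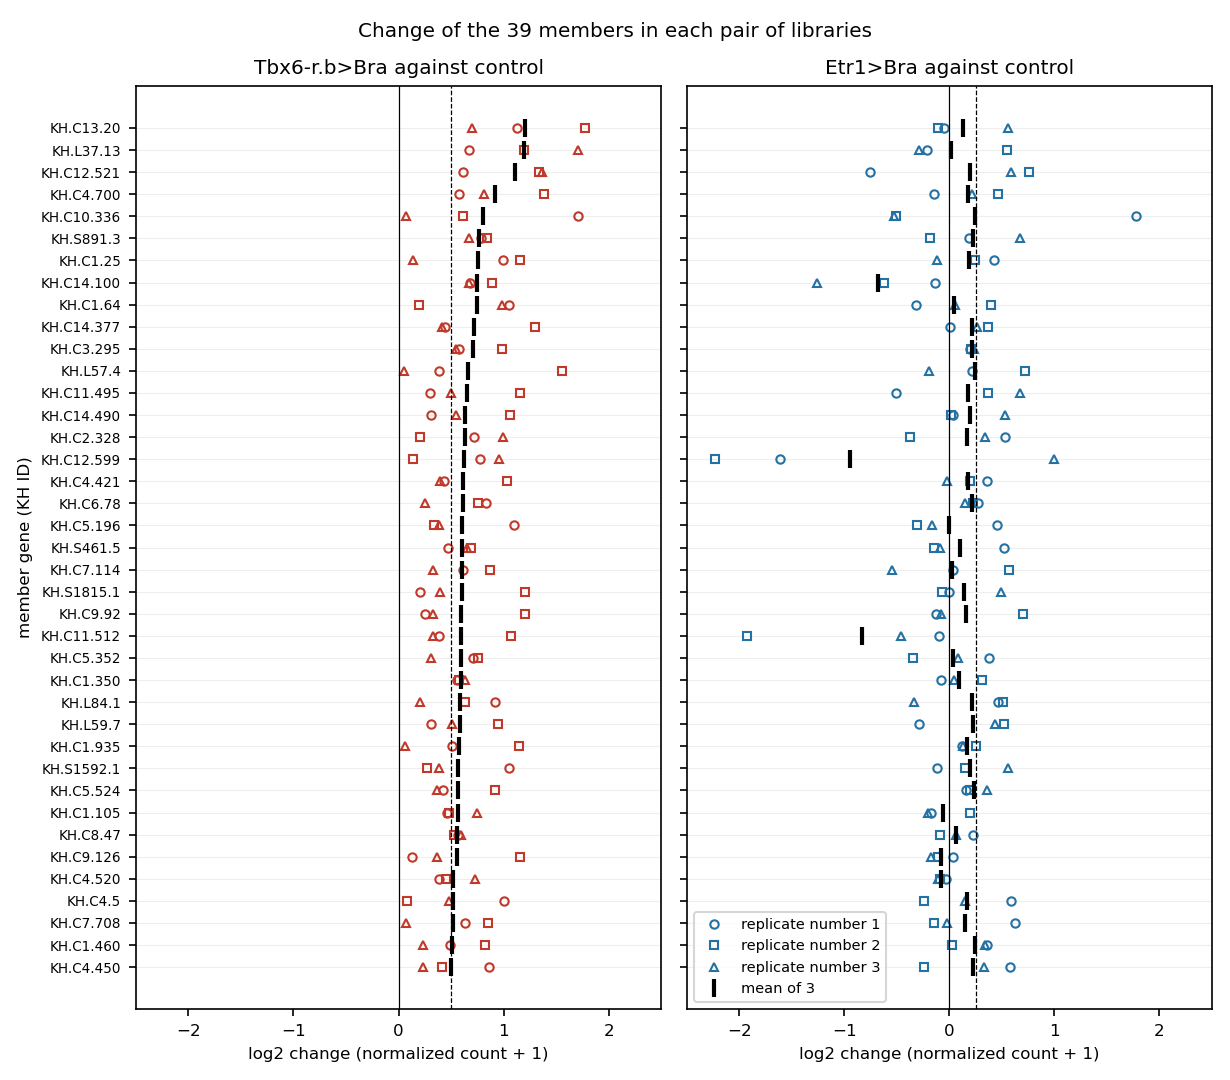
Log2 change of each of the 39 members against the control of the same replicate number, Tbx6-r.b>Bra being on the left and Etr1>Bra on the right. Each row is a gene, open symbols are the 3 pairs, black bars their mean, and dashed lines the bounds of the rule at 0.5 and 0.25; on the right the pairs of many members lie on both sides of 0.

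The members were genes of low abundance that were already detected in control embryos. Their mean normalized count in control ran from 11.9 to 133, with a median of 26.9, against a median of 197 over all genes tested. None had a control mean under 10, 29 had one between 10 and 50, and 5 had one of at least 100. Single libraries carried the control means of KH.C12.599 (2.04, 111 and 0 in replicates 1 to 3) and KH.C1.25 (12.3, 14.1 and 311). With Tbx6-r.b>Bra the means ran from 20.3 to 201. Together the members held between 0.0156% and 0.0197% of the reads of a control library. That share was 0.0154% to 0.0201% with Etr1>Bra and 0.0234% to 0.0285% with Tbx6-r.b>Bra. A member had 60 to 591 reads summed over the Tbx6-r.b>Bra libraries and 37 to 414 over the controls. The exact 95% binomial interval of the scaled read ratio of Tbx6-r.b>Bra over control, which covers counting error only, lay above 1 for 35 of 39 members, beside 15.3% of all genes tested. The rule used this ratio, so nothing is read from that count.

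No member passed the unblocked test against the spread between libraries. With limma and Benjamini-Hochberg adjustment over all genes tested, 0 of 39 members passed an adjusted p under 0.05 in Tbx6-r.b>Bra against control, where 0.507% of all genes were called higher. The smallest adjusted p of a member was 0.251 in limma, 14 members had an unadjusted limma p under 0.05, beside 3.01% of all genes in that direction, and edgeR and DESeq2 also called 0, beside 0.55% and 1.05% of all genes. Libraries of the same number varied together, and a block for that number was therefore added. The blocked limma fit called 14 of 39 higher, beside 2.98% of all genes, and blocked edgeR called 14, beside 2.97%, of which 13 were the same genes. The rule used this contrast, so nothing is read from these counts. The called members were more abundant in the median: their Tbx6-r.b>Bra means ran from 29.8 to 201 with a median of 121, against 20.3 to 72.5 with a median of 33.4 for the other 25. In this blocked limma fit, and in that between the constructs, the spread was taken from genes of like level (an infinite prior df). The p-values and standard errors (SE) of these blocked limma fits therefore do not measure a gene's own spread between pairs. In blocked fits that left out a pair of libraries, 6, 4 and 9 of the 14 were called without replicate 1, 2 and 3, beside 2.02%, 1.92% and 3.28% of all genes called higher. All of these fits called 2 of the members. The share of all genes called in all of them was not counted, so nothing is read from those 2.

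**Figure D2:**
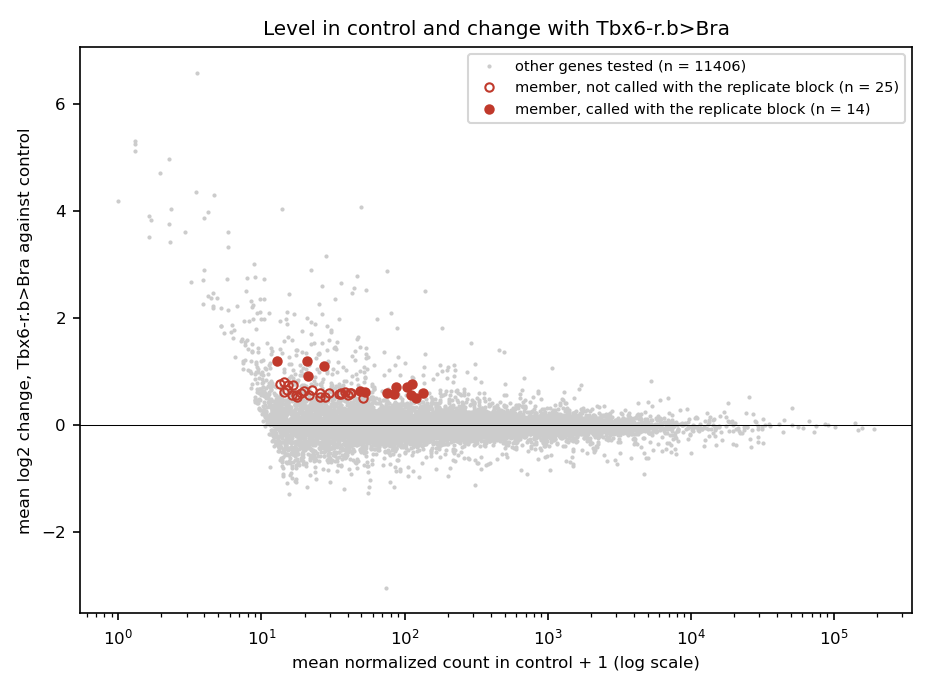
Mean normalized count in control plus 1 (log axis) against the mean log2 change with Tbx6-r.b>Bra for all 11445 genes tested. Members are red, filled where the blocked limma test called them (14) and open where it did not (25); all 5 members with a control mean of at least 100 are filled.

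The largest mean changes belonged to KH.C13.20, KH.L37.13 and KH.C12.521. KH.C13.20 stood at 17.4, 22.6 and 19.7 normalized counts in control replicates 1 to 3 and at 39.1, 79.3 and 32.7 with Tbx6-r.b>Bra, and the groups did not overlap. Its mean log2 change was 1.20 ± 0.37 (SE, n = 3 per group, limma adjusted p = 0.41, and 0.000143 with the block). Here and below, ± gives the SE of the limma fit without the block, which ignores the pairing. With the block the SE of KH.C13.20 was 0.25, taken from genes of like level and not from its own pairs. KH.L37.13 stood at 12.3, 11.3 and 12.2 in control and at 20.1, 27.2 and 42.1 with Tbx6-r.b>Bra. Here too each Tbx6-r.b>Bra library lay above every control, with a log2 change of 1.19 ± 0.38 (limma adjusted p = 0.504, and 0.0062 with the block). KH.C12.521 stood at 30.6, 17.9 and 31.0 in control and at 47.5, 46.7 and 81.3 with Tbx6-r.b>Bra, for a log2 change of 1.11 ± 0.33 (limma adjusted p = 0.39, and 0.000115 with the block). It was 1 of the 2 members called in every blocked fit of 2 pairs. In the block without replicate 2, KH.C13.20 and KH.L37.13 were not called (adjusted p = 0.176 and 0.0845), and KH.L37.13 was not called without replicate 3 (0.253).

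Among the next in size, KH.C4.700 went from 24.5, 20.7 and 15.04 in control to 37.0, 55.4 and 27.1, a log2 change of 0.92 ± 0.36 (limma adjusted p = 0.858, and 0.0169 with the block). KH.S891.3 went from 8.17, 15.98 and 13.2 to 14.8, 29.3 and 21.5. Its groups overlapped although each pair moved alike, with changes of 0.78, 0.84 and 0.67, and it was not called with or without the block (adjusted p = 0.327 and 1).

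The 8 most abundant members had Tbx6-r.b>Bra means of 112 to 201. KH.C1.350 had the most even changes of the named members. It stood at 142, 131 and 128 in control and at 209, 196 and 199 with Tbx6-r.b>Bra. Its changes in the 3 pairs were 0.56, 0.58 and 0.64, its Etr1>Bra values were 135, 164 and 133, and its limma adjusted p against control was 0.251, or 0.00499 with the block. KH.C14.377 stood at 90.9, 75.2 and 94.0 in control and 124, 186 and 125 with Tbx6-r.b>Bra, without overlap, and at 92.0, 98.6 and 114 with Etr1>Bra. Its log2 change with Tbx6-r.b>Bra was 0.71 ± 0.22 (limma adjusted p = 0.403, and 0.000853 with the block), carried most by pair 2 at 1.29. KH.C3.295, the other member called in every blocked fit of 2 pairs, stood at 146, 72.4 and 88.3 in control and 219, 145 and 130 with Tbx6-r.b>Bra. The groups overlapped while all 3 pairs were higher, by 0.58, 0.99 and 0.55 (adjusted p = 0.954, and 0.000656 with the block). With Etr1>Bra KH.C3.295 stood at 169, 84.5 and 105, and its changes of 0.20, 0.21 and 0.23 were small but alike in every pair.

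KH.C1.105 stood at 136, 124 and 71.4 in control, 187, 174 and 121 with Tbx6-r.b>Bra and 122, 144 and 62.5 with Etr1>Bra. Replicate 3 was the lowest library in each group. Its log2 change with Tbx6-r.b>Bra was 0.56 ± 0.27 (limma adjusted p = 1, and 0.0153 with the block). KH.C5.352 stood at 53.1, 82.7 and 86.5 in control and 87.6, 140 and 107 with Tbx6-r.b>Bra, for a log2 change of 0.59 ± 0.26 (limma adjusted p = 1, and 0.0223 with the block). KH.C1.935 rested on pairs 1 and 2: its changes were 0.51, 1.14 and 0.06, on control counts of 103, 75.2 and 72.4 and Tbx6-r.b>Bra counts of 147, 167 and 75.7. It was called with the block (limma adjusted p = 0.0237) but not in the block without replicate 1 or 2 (0.288 and 0.799).

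With Etr1>Bra the members' mean log2 change ran from −0.95 to 0.25 with a median of 0.17. For 32 of 39 it lay between 0 and the bound of 0.25, and for 23 it was at least 0.15. Over all genes tested with Tbx6-r.b>Bra, the median change with Etr1>Bra was −0.02. The members were chosen for high values over these same control libraries, so their position above control is not read as a change. In pairs 1, 2 and 3, 23, 22 and 23 of the 39 lay above 0. In single pairs, 19 members reached a change of at least 0.5 with Etr1>Bra in some pair, and 8 stayed under 0.25 in every pair. No member was called in Etr1>Bra against control by limma with or without the block, by edgeR without it or by DESeq2, and the number with an unadjusted p under 0.05 was 0 in each, beside 6.51%, 14.4%, 6.6% and 6.71% of all genes in either direction. The background there was 0.13% of all genes called higher by limma without the block, 3.49% by limma with it, 0.104% by edgeR and 2.54% by DESeq2. The blocked edgeR test called 1 member lower, with a background of 0.4% lower. The bound on Etr1>Bra fixes these low values by choice, and a change that misses the test is not shown to be absent.

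The label of genes raised with Tbx6-r.b>Bra alone was therefore set against the direct difference between the constructs, on reads rescaled together without the controls. Limma called 0 of 39 members, as it called 0% of all 11514 genes. Of the members 7 had an unadjusted limma p under 0.05, beside 0.877% of all genes in that direction, and edgeR and DESeq2 called 0 members, beside 0% and 0.0174% of all genes. Blocked limma called 5 of 39 higher with Tbx6-r.b>Bra, beside 0.877% of all genes, and blocked edgeR called 5, beside 0.782%, of which 4 were the same. The rule bounds both changes, so the direction of this difference is set by the choice of members. For the other 34 members, with log2 differences of 0.28 to 1.57 and a median of 0.49, a difference between the constructs was not shown in the blocked limma fit. The libraries showed the same mixture: all Tbx6-r.b>Bra libraries lay above all Etr1>Bra libraries for 14 members, beside 2.19% of all genes, and above all controls for 20, beside 4.4%. The change with Tbx6-r.b>Bra exceeded that with Etr1>Bra in all 3 pairs for 28 members, beside 8.98% of all genes.

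The 5 members called between the constructs with the block were KH.C13.20, KH.L37.13, KH.C12.521, KH.C14.100 and KH.C11.512. KH.C13.20 stood at 16.9, 21.1 and 29.8 with Etr1>Bra, where replicate 3 lay above every control, and its log2 difference between the constructs was 1.07 (blocked limma adjusted p = 0.0118). KH.L37.13 stood at 10.6, 17.1 and 9.92 with Etr1>Bra, a difference of 1.18 (0.0307). KH.C12.521 stood at 17.97, 31.2 and 47.6 with Etr1>Bra, below its control in pair 1 and above it in pairs 2 and 3, and the difference was 0.91 (0.0287). None of the 5 was called without the block (adjusted p = 1 for each) or in the block without replicate 2 (adjusted p of 0.293 to 0.379). Without replicate 1, 2 and 3, the block called 2, 0 and 3 of the 39 members, beside 0.434%, 0% and 0.219% of all genes called higher.

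KH.C14.100 and KH.C11.512 differed between the constructs by the most of these 5, and both were below control with Etr1>Bra. KH.C14.100 stood at 17.4, 11.3 and 17.9 in control, 28.5, 21.7 and 29.0 with Tbx6-r.b>Bra and 15.9, 7.04 and 6.94 with Etr1>Bra. Its Tbx6-r.b>Bra libraries lay above all others, and the difference between constructs was 1.42 (blocked limma adjusted p = 0.00679). KH.C11.512 stood at 22.5, 10.3 and 20.7 in control, 29.6, 22.8 and 26.2 with Tbx6-r.b>Bra and 21.1, 2.01 and 14.9 with Etr1>Bra. Its lowest value, in Etr1>Bra replicate 2, gave a change of −1.93 in that pair against −0.10 and −0.46 in the others. Its difference between constructs was 1.42 (blocked limma adjusted p = 0.00703, and 0.062 in blocked edgeR). Neither was called against control with either construct by blocked limma (adjusted p = 0.233 and 0.491 with Tbx6-r.b>Bra, and 0.506 and 0.442 with Etr1>Bra).

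**Figure D3:**
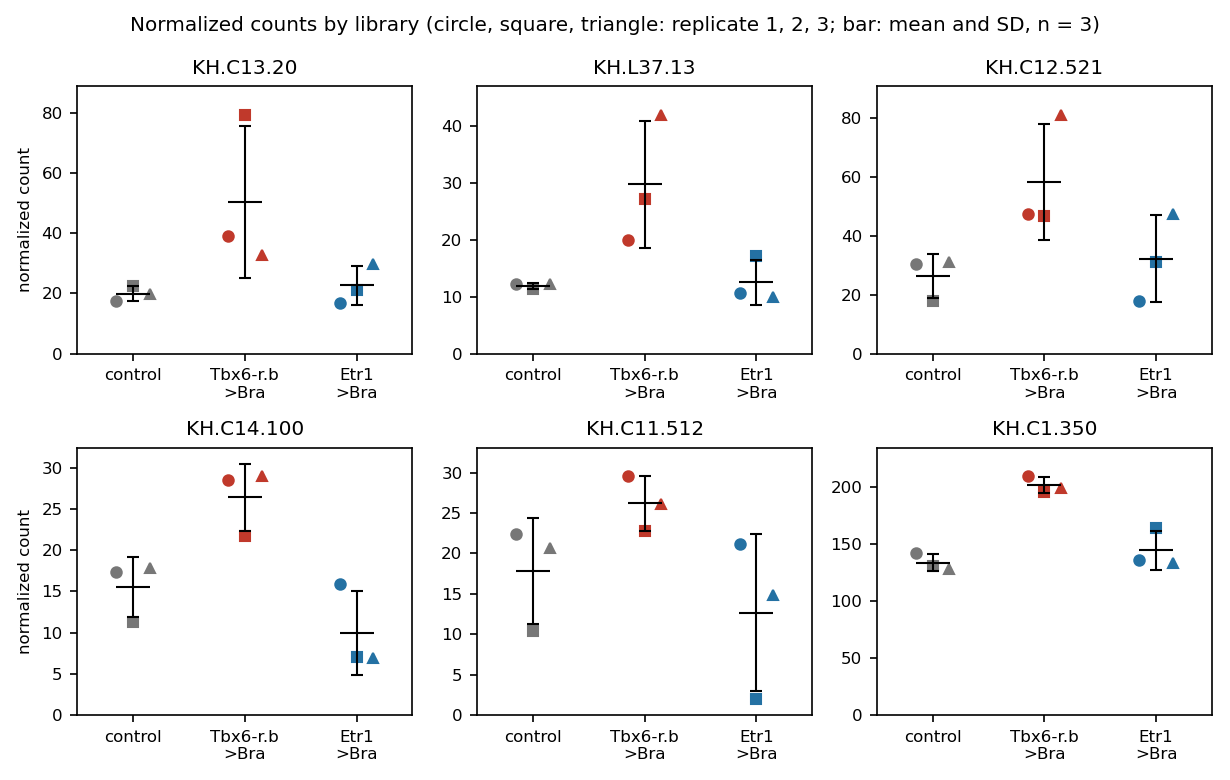
Normalized counts by library for the 5 members called between the constructs in the blocked limma fit and for KH.C1.350, with the mean and SD of each group (n = 3). Circles, squares and triangles are replicates 1, 2 and 3; in KH.C14.100 and KH.C11.512 the Etr1>Bra values reach 6.94 and 2.01, under the lowest control.

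KH.C9.126 and KH.C4.520 had small negative mean changes with Etr1>Bra, of −0.08 and −0.07. KH.C9.126 stood at 16.3, 15.04 and 17.9 in control and 16.9, 14.1 and 15.9 with Etr1>Bra, against 17.95, 34.8 and 23.4 with Tbx6-r.b>Bra, where replicate 2 was highest. KH.C4.520 stood at 22.5, 33.8 and 24.4 in control and 22.2, 32.2 and 22.8 with Etr1>Bra, so that each Etr1>Bra library came close to the control of its number. With Tbx6-r.b>Bra it stood at 29.6, 46.7 and 41.1. Neither was called in any of the 3 comparisons by limma with or without the block.

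Several members varied more between replicate numbers than between groups, among them KH.C1.105 and KH.C3.295 above, and KH.C12.599. KH.C12.599 stood at 2.04, 111 and 0 in control replicates 1 to 3, at 4.22, 122 and 0.934 with Tbx6-r.b>Bra and at 0, 23.1 and 0.992 with Etr1>Bra. Its counts sat almost wholly in replicate 2 of each group, and no library of replicates 1 and 3 exceeded 4.22. Its log2 change with Tbx6-r.b>Bra was 0.62 ± 1.76 (limma adjusted p = 1, and 0.893 with the block), and the ratio of summed reads was 1.03 with a counting interval of 0.793 to 1.34. The edgeR block called it lower with Etr1>Bra (adjusted p = 0.0271). The same fit called it higher with Tbx6-r.b>Bra than with Etr1>Bra (7.39e-05), where blocked limma did not (0.125).

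KH.C1.25 showed the same feature in replicate 3. It stood at 12.3, 14.1 and 311 in control, 25.3, 32.6 and 342 with Tbx6-r.b>Bra and 16.9, 17.1 and 290 with Etr1>Bra. Its log2 change with Tbx6-r.b>Bra was 0.76 ± 1.20 without the block (limma adjusted p = 1). With the block the SE was 0.21, taken from genes of like level and not from its own pairs. Its changes in pairs 1, 2 and 3 were 0.99, 1.15 and 0.14, so the pair with the high counts changed least. KH.C1.25 was called in blocked limma (0.00971) and not in blocked edgeR (0.332). In KH.C10.336 the first control was low, with counts of 5.10, 18.8 and 15.98 in control, 19.0, 29.3 and 16.8 with Tbx6-r.b>Bra and 20.1, 13.1 and 10.9 with Etr1>Bra. Its changes in pair 1 were 1.71 and 1.78 with the 2 constructs, while those in pairs 2 and 3 were 0.62 and 0.07 with Tbx6-r.b>Bra and −0.51 and −0.52 with Etr1>Bra.

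The members made up 10.2% of the 382 genes that met the conditions on Tbx6-r.b>Bra whatever their change with Etr1>Bra. The remaining genes had median changes of 0.99 (Tbx6-r.b>Bra) and 1.13 (Etr1>Bra), against 0.61 and 0.17 for the members. Their control level was similar, with a median of 29.5 normalized counts against 26.9. Over all 382 genes the median change with Etr1>Bra was 0.57, 1.01 and 1.73 in pairs 1, 2 and 3, and over the members 0.04, 0.15 and 0.08. The contrasts in the change with Etr1>Bra follow from the bound on it. Both changes are taken over the same control libraries, so that bound can also shift the change with Tbx6-r.b>Bra and the control level. None of these contrasts was tested, and nothing is read from them. With the conditions exchanged between the constructs, 154 genes qualified.

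**Figure D4:**
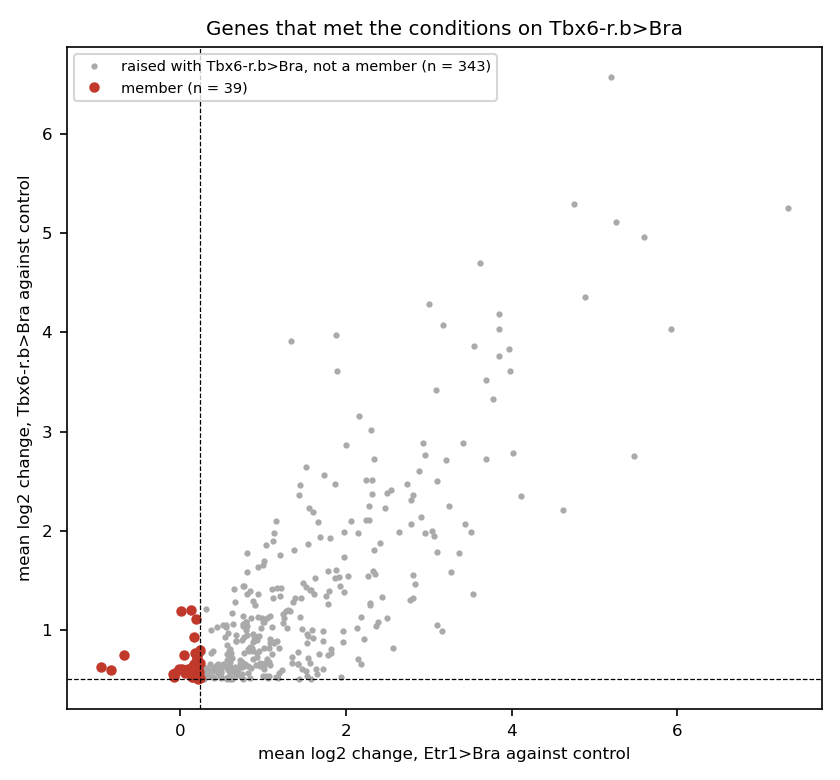
Mean log2 change with Etr1>Bra (horizontal) against that with Tbx6-r.b>Bra (vertical) for the 382 genes that met the conditions on Tbx6-r.b>Bra, with the bounds of the rule as dashed lines at 0.25 and 0.5. The 39 members (red) form the left edge of a continuous cloud, and 23 of them lie between 0.15 and the bound at 0.25.

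The bounds cut through a continuous range of values. KH.C4.450, with a mean change of 0.50 with Tbx6-r.b>Bra, was the member nearest that bound, and KH.C3.386 fell just short at 0.49. KH.C4.450 stood at 130, 108 and 119 in control, 237, 145 and 140 with Tbx6-r.b>Bra and 196, 92.6 and 152 with Etr1>Bra, so that replicate 1 was highest in each group. KH.L57.4 was nearest both other bounds, with a mean change of 0.25 with Etr1>Bra and a Tbx6-r.b>Bra mean of 20.3. The nearest genes outside were KH.C1.765, with a mean change of 0.26 with Etr1>Bra, and KH.C9.104, with a Tbx6-r.b>Bra mean of 18.5. KH.L57.4 stood at 14.3, 5.64 and 22.6 in control and 19.0, 18.5 and 23.4 with Tbx6-r.b>Bra, and its changes of 0.39, 1.55 and 0.05 were carried by pair 2.

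On the authors' regularized log2 scale, which draws uncertain changes towards 0, the members' mean difference from control ran from 0.03 to 0.27 with Tbx6-r.b>Bra, with a median of 0.13. With Etr1>Bra it ran from −0.24 to 0.10, with a median of 0.02, and lay above 0 for 32 of 39. By the letter in their IDs, 31 members had the prefix KH.C, 4 KH.L and 4 KH.S, or 79.5%, 10.3% and 10.3%, where all models had 68.7%, 19.5% and 11.8%. They carried 22 different second parts of the ID, the part that holds this letter.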

How the data were processed

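RNA sequencing libraries from 9 samples (3 Bra>GFP control, 3 Etr1>Bra, 3 Tbx6-r.b>Bra) were grouped by their titles. Per the file headers, the authors deposited 2 kinds of value: library-size normalized counts (a signal of 0 or more) and regularized log2 values. Each construct has a table with all controls. Per the submitters' processing notes, the tools include TopHat2 2.9.8b and DESeq 1.8.1. The build, and how or on which strand reads were counted, is not given in the sources used here. Overlapping, antisense or near-identical genes may therefore share reads. All normalized values were whole multiples of a step per library (100% within a tolerance of 0.01), so whole reads were recovered; control reads differed between tables for 0 genes. No libraries were copies (chi-square per gene 9.673 to 29.73 between replicates).

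The main test was limma-trend (limma 3.58.1, R 4.3.3) on the log2 scale with a pseudocount of 1. Genes averaging 10 or more normalized counts were all fitted, two-sided, with calls at a Benjamini-Hochberg adjusted p under 0.05. For low genes, a fold on log2(count + 1) is smaller than the true fold. For the comparison between constructs, recovered reads of those 6 libraries were brought to a common scale by median of ratios, the tables having been normalized separately. Alternatives were a block for the replicate number, edgeR 4.0.16 and DESeq2 1.42.0 on recovered reads, other pseudocounts, filters and scalings, and leaving out libraries. The replicate numbers in the titles were checked on deviations from the group means: libraries sharing a number had correlations of 0.477 to 0.717, and other libraries −0.426 to −0.103, so the numbers were taken to pair the samples, and blocked values are given. The procedures were also run on simulated reads in which every gene had the same spread between pairs. The real genes need not vary in that way, and no result here rests on that run. The members and the naming rule were chosen with earlier results of these data known. Named are the 8 largest changes and 8 highest levels with Tbx6-r.b>Bra, the 6 lowest and 4 most variable changes with Etr1>Bra, the 6 smallest blocked adjusted p between constructs and the genes nearest each bound, 20 of 39 members in all. The planned marker lists had no names to match.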

Additional observations from a re-analysis of the deposited data

Results flagged for a closer look

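For 5 members, beside 0.877% of all genes, the blocked limma test called the difference between the constructs itself, adjusted over all genes. Taken as the Tbx6-r.b>Bra level over the Etr1>Bra level, the log2 difference was 1.42 for KH.C14.100, 1.42 for KH.C11.512, 1.18 for KH.L37.13, 1.07 for KH.C13.20 and 0.91 for KH.C12.521. The rule bounds both changes, so neither the direction nor the size of this difference is separate evidence. None of the 5 passed without the block or in the block without replicate 2. Blocked edgeR did not call KH.C11.512 (adjusted p = 0.062). The blocked limma p-values do not measure a gene's own spread between pairs. Outlying libraries were not looked for, since each group has 3.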

How the results depend on the processing

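Neither other pseudocounts, the low-count filter, TMM scaling, unblocked edgeR, DESeq2 nor leaving out any library changed the count of 0 called members in any of the 3 comparisons, nor did the regularized log2 values against control; DESeq2 gave 37 of 39 members a p-value. With the replicate block, limma called 14 members in Tbx6-r.b>Bra against control, beside 2.98% of all genes. Without replicate 1, 2 and 3 it called 6, 4 and 9, beside 2.02%, 1.92% and 3.28%. Between the constructs it called 5, beside 0.877%. There the count without replicate 1, 2 and 3 was 2, 0 and 3, beside 0.434%, 0% and 0.219%. Blocked edgeR called 14 and 5, beside 2.97% and 0.782%, and 1 lower with Etr1>Bra, beside 0.4%. The rule used or bounds these contrasts, so nothing is read from these counts. The choice of members itself was less stable. Repeating the rule on 2 of the 3 replicate numbers gave 40 to 95 genes, sharing 23, 16 and 28 with the 39 when replicate 1, 2 or 3 was left out, and 8 members met the rule each time. The median change with Etr1>Bra then ran from 0.033 to 0.116. Stricter bounds left 7 members (mean change with Etr1>Bra under 0), 8 (every pair under 0.25), 3 (mean change with Tbx6-r.b>Bra at least 1), 8 (Tbx6-r.b>Bra mean at least 100) and 20 (no overlap with controls). A pseudocount of 5 gave 31 genes, 28 of them shared, and TMM scaling 40, with 38 shared.

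Among the 20 named members, all but KH.C1.25, KH.C12.599 and KH.C4.450 kept their direction without each library. The rule required a rise with Tbx6-r.b>Bra in all 3 pairs and bounded the change with Etr1>Bra. These directions are therefore largely set by the choice of members, and nothing is read from them. KH.C1.25 against control turned negative without control replicate 1 (−0.03) or Tbx6-r.b>Bra replicate 3 (−0.42), in a range of −0.42 to 2.25, and between constructs without Etr1>Bra replicate 1 (−0.09) or 2 (−0.08) or Tbx6-r.b>Bra replicate 3 (−0.59), in a range up to 1.91. KH.C12.599 against control turned negative without control replicate 3 (−0.78) or Tbx6-r.b>Bra replicate 2 (−1.14), in a range up to 2.62, and KH.C4.450 between constructs without Etr1>Bra replicate 2 (−0.01, range up to 0.53). These fits had no block. In blocked fits without replicate 1, 2 and 3, KH.C1.25 gave 0.65, 0.56 and 1.07 against control. Between constructs it gave 0.59, 0.42 and 0.74, and KH.C4.450 gave 0.28, 0.10 and 0.47. KH.C12.599 against control gave 0.54 and 0.46 without replicate 1 and 3, and has no value without replicate 2. The cause of the turns in sign was not tested. KH.C12.599 fell under the count filter between constructs without Tbx6-r.b>Bra replicate 2 and has no value there. The counting interval of the read ratio with Tbx6-r.b>Bra included 1 for 4 of 39 members, so counting error alone could cover their change. For the other 35 it lay above 1, beside 15.3% of all genes tested, while the unblocked limma test called 0 of the 39. The rule used this ratio, so nothing is read from the count of 35.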
